A study of Mus musculus with 24 samples.

Results

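Processed pseudogenes of the ribosomal proteins are copies of a messenger RNA that was reverse transcribed and inserted elsewhere in the genome, so they carry no introns and resemble the coding sequence of their parent gene. The ribosomal proteins of the large (Rpl) and small (Rps) subunit are made in every cell, and their abundant mRNAs have left more such copies in mammalian genomes than most other gene families. A short read from one of these mRNAs may match its parent and a pseudogene equally well, while a mismatch between the copies or a splice junction can help to place it. The hypothalamus, the brain region that regulates food intake and body weight, was sequenced here, and the question addressed was how the rows of these pseudogenes behaved during and after overfeeding beside the rows of the parent genes.

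The 145 members described here were the rows of the count table whose symbol starts with Rpl or Rps and contains -ps, with a total of at least 50 counts over the 24 libraries. They were taken from 300 such symbols among 55471 rows, of which 31 had no count in any library and 124 had 1 to 49 counts. Just inside that limit stood Rpl15-ps2 and Rpsa-ps5 with 50 counts each, and just outside it stood Rpl10a-ps2, Rpl13-ps3 and Rps19-ps10 with 48 each. Large subunit copies made up 89 of the members and small subunit copies 56. They lay on 20 chromosomes, 71 of them on the plus strand, and they were copies of 51 parent genes, led by Rpsa with 8 members and by Rpl21, Rpl31 and Rps12 with 7 each. The annotation named 136 of them processed pseudogenes and 5 transcribed processed pseudogenes, and 4 (Rpl10-ps3, Rpl36a-ps1, Rpl9-ps6 and Rps12-ps3) were listed as protein coding.

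All mice were chow-fed male C57BL6/J animals, 18 weeks old, that carried an intragastric catheter. ExpOF d14 mice received a liquid diet with added sucrose until 150% of their energy intake was infused and were killed on day 14, and Control d14 mice received sterile water through the same catheter. ExpOF d14+3 and Control d14+3 mice were killed on day 17, after 3 days in which both groups were infused with water alone. Each of the 4 groups held 6 libraries, 1 per mouse, and Control d14 replicate 4 was left out of every comparison, as the study left out 1 Control d14 mouse for poor RNA quality. Which library that was followed from the study's mean counts, although its label gives an RNA integrity number of 9.8, and with it included the members' median log2 fold change on day 14 given below was -1.38 in place of -0.64.

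The 23 libraries used held 8928182 to 34848437 counts. Each group combined mice killed in July and in September (3 libraries per cohort, with 2 in September for Control d14). By the labels, replicates 1 to 3 of each group belonged to extraction round 1 and replicates 4 to 6 to round 2. Among the tissue markers, 14 of 15 hypothalamic genes reached a median CPM (counts in 1000000 counts of a library, with normalized library sizes) of at least 1, while the 3 pituitary markers summed to a median of 0.218 CPM, with the highest library in Control d14 at 102.3 CPM and the highest of ExpOF d14 at 18.2. The 4 choroid plexus markers summed to 33.1 to 3036 CPM, with their median at 39.1, the highest library in Control d14 and the highest of ExpOF d14+3 at 1278. The 2 thalamus markers summed to 55.9 to 275 CPM in Control d14 and to 64.5 to 170 CPM in ExpOF d14. On day 17 they summed to 192 to 461 CPM in Control d14+3 and to 176 to 429 CPM in ExpOF d14+3. The part of other tissue in the results below was not tested.

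The members differed in how much of their sequence was their own. Over the 143 members that aligned to their parent mRNA, the median identity was 98.4% (87.1% to 100%). Cut into stretches of 51 bases, the read length, a median of 48.5% of a member's stretches also occurred in its parent, and 60.5% occurred in at least 1 other annotated gene. For 11 members every stretch occurred in the parent, and for 19 members every stretch occurred in some other gene. Only 2 members shared no stretch with any other gene, and neither passed the filter on low counts described below. The stretches stand for single reads, and the second read of a pair was not considered.

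Rpl38-ps2 shows the extreme case, and its sequence is printed because no base in it tells it from its parent. It is a copy of the mRNA of RPL38, a small protein of the large subunit, and occupies chr6:140746960-140747172 (mm10, minus strand). Its 213 bases equal the whole coding sequence of the Rpl38 transcript (GENCODE vM21, from which all sequences here were read), and capitals mark the start and stop codons.

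Rpl38-ps2: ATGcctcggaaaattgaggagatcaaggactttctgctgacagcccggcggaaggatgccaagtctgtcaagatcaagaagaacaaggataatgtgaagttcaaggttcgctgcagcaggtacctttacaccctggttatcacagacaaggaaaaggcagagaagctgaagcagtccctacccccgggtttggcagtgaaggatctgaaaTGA

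Other members, printed beside their parents, carry differences that can place a read. For each the 100 aligned bases of the parent's coding sequence with the most mismatches are given, and capitals mark the bases that differ. Rpl14-ps1, the member with the most counts, differed from Rpl14 at 4 bases and 3 gap positions in all, and 2 of the bases fall in this stretch (chr7:45325288-45325387, plus strand, and bases 419 to 518 of the Rpl14 transcript).

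Rpl14-ps1: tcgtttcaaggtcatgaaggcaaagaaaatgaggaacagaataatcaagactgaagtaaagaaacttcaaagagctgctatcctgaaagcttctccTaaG

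Rpl14: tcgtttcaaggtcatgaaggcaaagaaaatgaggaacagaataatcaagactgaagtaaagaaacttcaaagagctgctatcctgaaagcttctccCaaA

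Rpl3-ps2, 1 of 2 copies of Rpl3 on the X chromosome, had 10 mismatches in all and 3 in the stretch shown (chrX:74171596-74171695, plus strand, and bases 1022 to 1121 of the Rpl3 transcript).

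Rpl3-ps2: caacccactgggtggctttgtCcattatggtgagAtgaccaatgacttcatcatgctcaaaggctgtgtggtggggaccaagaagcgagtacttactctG

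Rpl3: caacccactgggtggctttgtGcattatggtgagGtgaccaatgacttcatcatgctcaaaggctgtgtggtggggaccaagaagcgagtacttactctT

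Rpsa-ps11 was among the most diverged of the members with many counts, with 37 mismatches and 95.7% identity to Rpsa. The stretch shown holds 9 of them (chr4:59163016-59163115, minus strand, and bases 217 to 316 of the Rpsa transcript). RPSA is the laminin-receptor protein of the small subunit.

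Rpsa-ps11: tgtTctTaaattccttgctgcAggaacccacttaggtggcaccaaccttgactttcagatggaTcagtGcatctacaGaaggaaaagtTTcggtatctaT

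Rpsa: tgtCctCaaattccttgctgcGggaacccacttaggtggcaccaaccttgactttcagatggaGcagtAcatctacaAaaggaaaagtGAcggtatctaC

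Among the members, the rows without any base of their own were not the lowest. All members were chosen for a total of at least 50 counts. Copies below that limit were not sorted by sequence, so the classes hold only rows above it. The 11 members held whole by their parent had a median total of 1114 counts over 24 libraries (69 to 2238). The 54 members with 50% to under 100% of their stretches in the parent had a median of 232.5 counts, and the 80 members with less than 50% had a median of 126 counts. Among those 11, Rps16-ps2, Rpl31-ps8, Rpl38-ps2, Rpl10a-ps1, Rps13-ps2 and Rpl36a-ps2 held 2238, 2002, 1969, 1685, 1248 and 1114 counts. How reads that match several places were counted is not given in the sources used here, so a count in these rows cannot be assigned to the copy or to its parent.

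**Figure D1:**
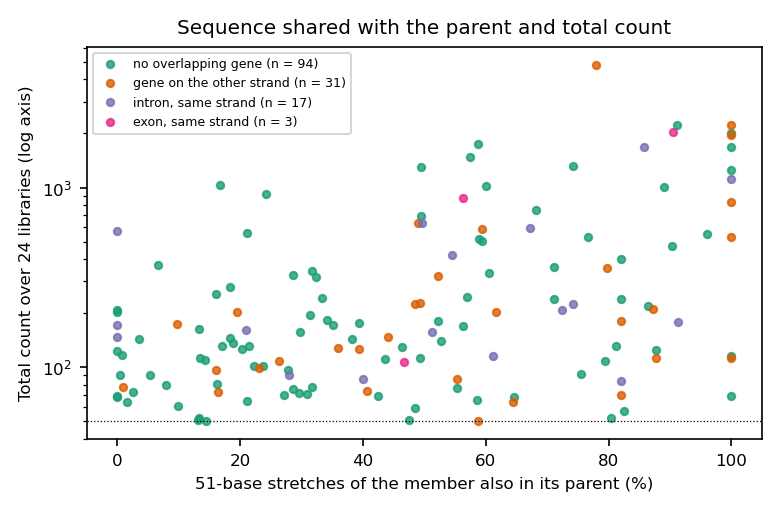
Total count over 24 libraries (log axis) of each of the 145 members against the percentage of its 51-base stretches that also occur in the parent gene, coloured by the annotated gene the member overlaps. The dotted line marks the limit of 50 counts, and the members at 100% range from 69 to 2238 counts.

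Counts were concentrated in few members. The 8 highest held 32.8% of the 56927 counts of all members, 17 members had at least 1000 counts and 41 had fewer than 100. Per kilobase of annotated length, the median member stood at 1.03% of its parent, 127 members stood below 5% and 11 above 10%. The annotated length of a parent also counts the exons of its minor transcripts, which lowers its value per kilobase. Rps10-ps1 was the exception, at 4.28 CPM per kilobase against 2.06 for Rps10, a protein of the small subunit. The other copy of that gene, Rps10-ps2, stood at 81.0% of Rps10. The parent row was itself low, with a mean of 5.08 ± 1.56 CPM in Control d14 (SD, n = 5), and 49.4% of the stretches of Rps10-ps1 occur in Rps10.

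Position relative to other genes varied as well. Of the members, 94 overlapped no other annotated gene, 31 lay opposite a gene on the other strand, 17 lay in an intron of a gene on the same strand and 3 overlapped an exon on the same strand. Rpl14-ps1 lies opposite an intron of Trpm4, an ion channel gene, and Rpl10-ps5 lies within an intron of Nup93, a nuclear pore gene. Without the strand setting of the counting, which is not given in the sources used here, reads of overlapping genes cannot be told apart.

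Taken over all members, the summed level was 112 ± 27.4 CPM in Control d14 (n = 5), 74.5 ± 9.29 CPM in ExpOF d14, 88.1 ± 25.7 CPM in Control d14+3 and 85.6 ± 18.2 CPM in ExpOF d14+3 (SD, n = 6 each). The Control d14 libraries stood at 90.4, 94.0, 140, 144 and 92.3 CPM for replicates 1, 2, 3, 5 and 6, and the ExpOF d14 libraries reached from 62.8 over a median of 73.4 to 88.9 CPM. Every ExpOF d14 library was below every Control d14 library in the sum, and control replicates 3 and 5 stood well above the other controls. On day 17 the groups overlapped, with 62.9 to 124 CPM in Control d14+3 and 59.6 to 114 CPM in ExpOF d14+3. These sums weight the members by their counts and were not tested.

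The parent genes summed to 6957 ± 1586, 5593 ± 343, 6682 ± 886 and 5199 ± 775 CPM in the same order (SD, n = 5, 6, 6 and 6). As a share of parent counts, the members made up 1.69 ± 0.585% in Control d14, 1.34 ± 0.202% in ExpOF d14, 1.33 ± 0.397% in Control d14+3 and 1.66 ± 0.314% in ExpOF d14+3 (SD, n = 5, 6, 6 and 6). The share ranged from 1.00% to 2.48% over the 23 libraries, and all 4 groups overlapped.

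**Figure D2:**
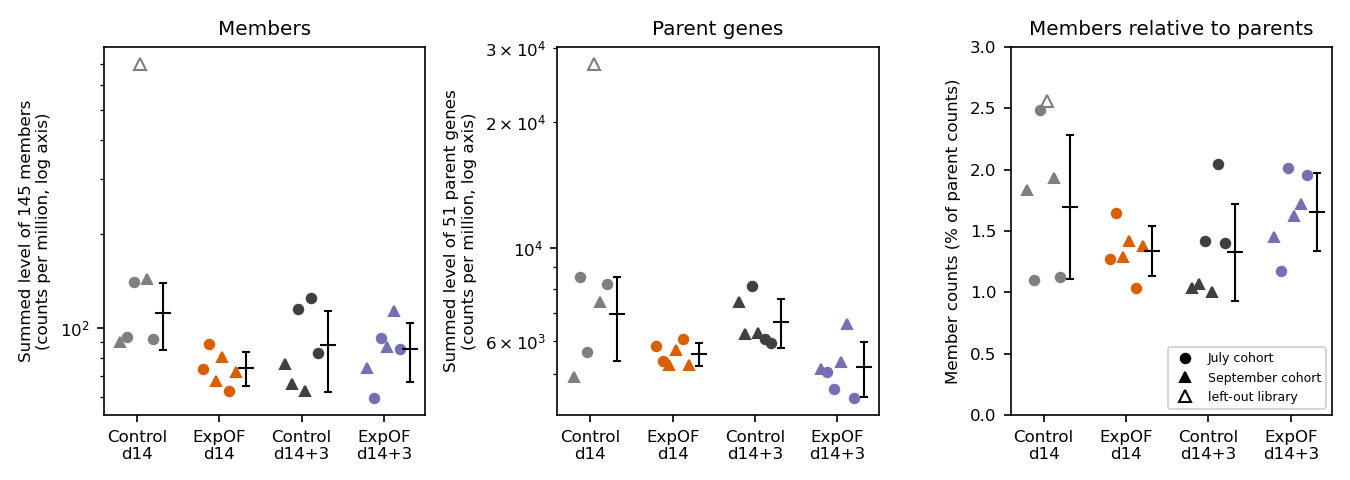
Summed CPM of the 145 members (left, log axis), summed CPM of their 51 parent genes (middle, log axis) and member counts as a percentage of parent counts (right) in each library, with July mice as circles, September mice as triangles, and the mean ± SD of each group beside its points. The open triangle is the left-out Control d14 library at 703 CPM, which enters no mean.

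Comparing single genes between ExpOF and Control, 63 of the 145 members passed the filter on low counts, beside all 51 parent genes. The filter asked for about 10 counts in as many libraries as the smallest group held, so a member could pass through the group in which it was high. On day 14, no member passed the threshold (edgeR's quasi-likelihood test, adjusted p under 0.05), where 0.00527% of all 18992 genes tested did, and the smallest adjusted p among the members was 0.135. DESeq2 called 0 of 63 members and 0.874% of all genes. At an unadjusted p under 0.05, 31 of 63 members (49.2%) were lower in ExpOF d14 and 0 were higher, where 26.7% of all genes tested had such a p, 13.6% being lower and 13.1% higher. Among the parent genes, 44 of 51 (86.3%) were lower at such a p. The 31 lower members became 17 without Control d14 replicate 3 and 15 without Control d14 replicate 5. They became 20 with the RNA integrity number in the fit and 10 with a score for how far each library resembled the left-out one. With cohort and extraction round in the fit they numbered 26. Without Control d14 replicates 1, 2 and 6 in turn they numbered 33, 33 and 35, with 67, 68 and 68 members tested. By sign alone 61 of 63 members were lower, where 53.4% of all genes were. The libraries of the groups overlapped for every tested member, where 0.837% of all genes were lower and 1.87% higher without overlap. The median log2 fold change of the members was -0.64, beside -0.02 over all genes tested. In a fit of every gene with at least 1 count, which kept all 145 members, the median was -0.58 and 131 were lower.

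The parent genes were also lower in ExpOF d14. All 51 had a negative log2 fold change, with a median of -0.34 and a range of -0.54 to -0.04, and none passed the threshold. The 29 ribosomal protein genes without a member here had a median of -0.37, and 25 of them (86.2%) were lower at an unadjusted p under 0.05. Pseudogenes of other families with -ps in their symbol stood near 0, with a median of -0.06 over the 91 tested. The difference between the log2 fold change of a member and that of its parent had a median of -0.30 and was negative in 55 of 63 pairs. That median was -0.13 without Control d14 replicate 3, -0.47 without Control d14 replicate 2 and -0.46 without Control d14 replicate 6.

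The median on day 14 was of similar size in each class of position and sequence. It was -0.57 for the 37 tested members that overlapped no gene, -0.72 for 16 opposite a gene and -0.66 for 8 in an intron of a gene on the same strand. The tested genes that hold those introns had a median of -0.05 (n = 6). The 8 tested members held whole by their parent had a median of -0.65, the 34 with 50% to under 100% shared stretches -0.72, and the 21 with less than 50% -0.53. At an unadjusted p under 0.05, 7 (87.5%), 20 (58.8%) and 4 (19.0%) members of these classes were lower, where 13.6% of all genes tested were. The shares differed between the classes although the medians were similar, and the cause was not tested. The only tested members above 0 on day 14 were Rps13-ps4 at 0.50 and Rpl7-ps7 at 0.12, both chosen after their values were seen.

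On day 17, the members stood on both sides of 0 while the parents stood below it. The median log2 fold change of the members was -0.02, with 34 of 63 lower, where 47.9% of all genes were lower. No member passed the threshold (edgeR, smallest adjusted p 0.227), and 0% of all genes tested did. At an unadjusted p under 0.05, 2 members were higher (Rpsa-ps11 and Rps13-ps4) and 3 lower (Rpl3-ps2, Rps10-ps1 and Rpl35a-ps4), where 7.11% of all genes had such a p, 2.91% being higher and 4.2% lower. Over all 145 members, in the fit of every gene with at least 1 count, the median was -0.04 and 80 were lower. The parents had a median of -0.40, again negative in all 51, and the ribosomal protein genes without a member a median of -0.47. Lower at an unadjusted p under 0.05 were 43 of the 51 parents and 22 of the 29 genes without a member. The member-minus-parent difference had a median of 0.40 and was positive in 53 of 63 pairs.

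An interaction term of day and overfeeding asked whether the response itself differed between the days, and it called no member and no other gene (edgeR, 0% of genes tested, smallest adjusted p among the members 0.903). At an unadjusted p under 0.05, 13 members were higher on day 17 than on day 14 in their response and 1 was lower, where 4.42% of all genes had such a p, 2.78% being higher and 1.64% lower. The 13 became 6 without Control d14 replicate 3 or without replicate 5, 21 without Control d14+3 replicate 5 or without ExpOF d14+3 replicate 2, 0 in the July mice alone and 30 in the September mice alone. By sign, 4 of 63 were lower on day 17, where 47.4% of all genes were. DESeq2 called no member in this term. The median interaction was 0.62 for the members and -0.07 for the parents.

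**Figure D3:**
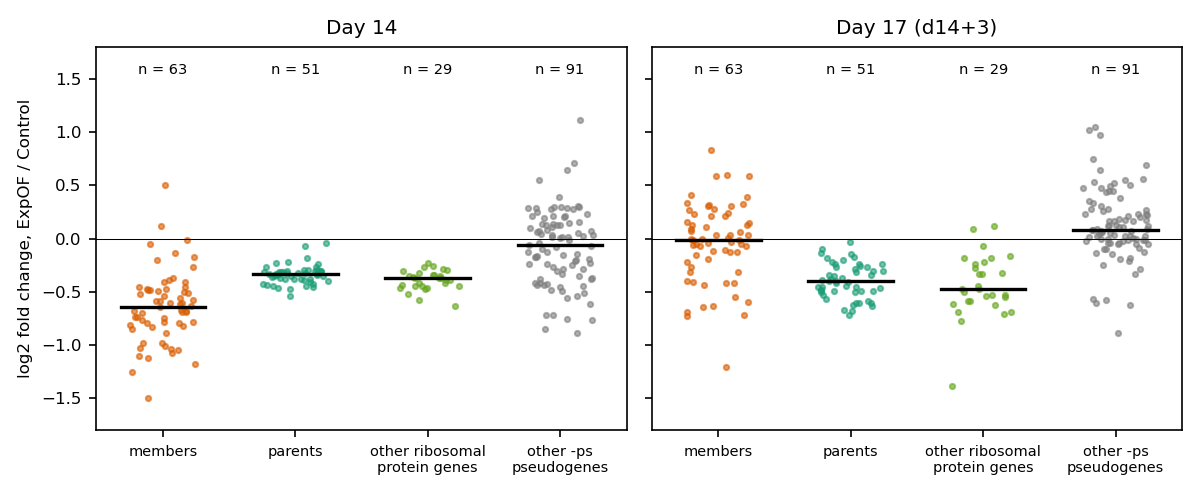
log2 fold change of ExpOF against Control on day 14 (left) and day 17 (right) for every tested gene of 4 lists, with the median as a black bar. The members' medians stand at -0.64 and -0.02 and those of the parents at -0.34 and -0.40; no member or parent passed the threshold.

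The July and September mice did not give the same picture on day 17. In a fit of each cohort alone, with 56 members tested in July and 70 in September, the median log2 fold change of the members on day 14 was -0.59 in July and -0.74 in September. On day 17 it was -0.48 in July and 0.46 in September, so its direction turned with the cohort, while the parents had -0.59 and -0.24. The Control d14+3 libraries of July held 108 ± 21.6 CPM of members and those of September 68.6 ± 7.14 CPM (SD, n = 3 each), against 79.5 ± 17.6 and 91.7 ± 20.2 CPM in ExpOF d14+3. The part of the cohort in the day 17 values was not tested beyond these fits.

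The largest differences on day 14 among members with a mean of at least 20 counts were held by copies of Rpl31, Rpsa, Rpl38 and Rps26. Rpl31-ps8 (chr15:90764279-90764656, overlapping no gene) has no mismatch along its own length to the mRNA of RPL31, a protein of the large subunit. It stood at 3.37, 2.36, 6.03, 7.79 and 2.57 CPM in Control d14 replicates 1, 2, 3, 5 and 6. In ExpOF d14 it had 0.45 CPM at the lowest, a median of 2.28 and 2.38 at the highest. Replicates 3 and 5 were the high controls and the groups overlapped narrowly. The log2 fold change was -1.13 (SE 0.39, edgeR adjusted p 0.135), beside -0.34 for Rpl31.

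Rpl38-ps2, printed above in full, had the same 2 high controls, at 5.27 and 8.26 CPM, with the others at 2.81, 2.45 and 3.62 CPM. ExpOF d14 spanned 1.66 to 3.08 CPM with a median of 2.07. Its log2 fold change was -1.03 (SE 0.35, edgeR adjusted p 0.135) against -0.43 for Rpl38. Rpsa-ps2 (chr10:128776371-128777250) stood at 2.07, 1.90, 4.502, 3.196 and 1.24 CPM in Control d14 and at 0.56 to 2.48 CPM, median 0.91, in ExpOF d14. The groups overlapped, and the log2 fold change was -1.10 (SE 0.35, edgeR adjusted p 0.135) against -0.31 for Rpsa. Rps26-ps1 was low throughout, with 1.13 ± 0.422 CPM in Control d14 (n = 5) and 0.564 ± 0.282 CPM in ExpOF d14 (SD, n = 6), a log2 fold change of -1.01.

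Among the other highly counted members, Rpl3-ps1 (chrX:13202571-13203780), a copy of the gene for RPL3, which lies near the peptidyl transferase centre of the large subunit, had 2 mismatches to Rpl3. It stood at 3.78, 4.17, 5.46, 5.44 and 3.00 CPM in Control d14 and at 2.001 to 3.09 CPM, median 2.78, in ExpOF d14. Only control replicate 6 fell within the ExpOF range, and the log2 fold change was -0.69 (SE 0.19, edgeR adjusted p 0.135; exact permutation p of CPM 0.00649, two-sided, unadjusted). Rpl10a-ps1, without a mismatch to the Rpl10a mRNA along its own length, held 3.399 ± 0.793 CPM in Control d14 (n = 5). In ExpOF d14 it held 2.10 ± 0.526 CPM (SD, n = 6). Its log2 fold change was -0.70 (SE 0.21), beside -0.46 for Rpl10a.

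The 8 highest members spanned log2 fold changes of -1.13 to -0.27 on day 14 and of -0.19 to 0.21 on day 17. Rps16-ps2, Rpl19-ps11 and Rpl10-ps5 stood at -0.61, -0.63 and -0.82 on day 14. The smallest of the 8 was that of Rpl14-ps1, the highest member, with 9.03 ± 2.66 CPM in Control d14 (n = 5) and 7.64 ± 2.16 CPM in ExpOF d14 (SD, n = 6).

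**Figure D4:**
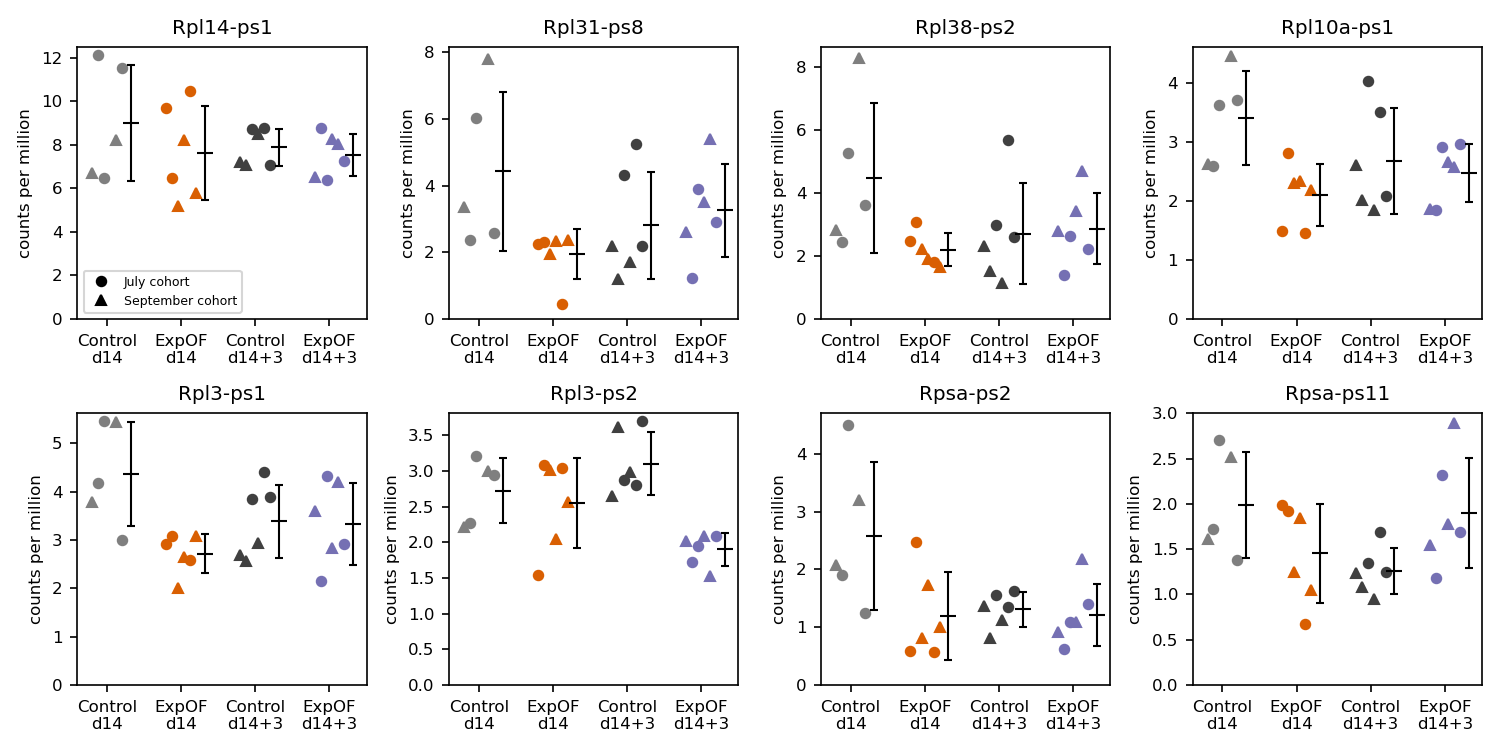
CPM of 8 members in each of the 23 libraries used, with July mice as circles, September mice as triangles and the mean ± SD of each group beside its points. Rpl31-ps8 and Rpl38-ps2 were highest in Control d14 replicates 3 and 5, and the ExpOF d14+3 libraries of Rpl3-ps2 all lie below the Control d14+3 libraries.

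The same few libraries were high for most members. Among the 63 tested members, the highest Control d14 library was replicate 3 for 29 and replicate 5 for 24. In Control d14+3 it was replicate 5 for 31 and replicate 3 for 22, and in ExpOF d14+3 it was replicate 5 for 32. The RNA integrity number of these libraries ran from 7.2 in Control d14+3 replicate 5 to 9.9 in Control d14+3 replicate 3. Control d14 replicates 3 and 5 had a median member level 0.84 and 0.78 log2 units above the mean over libraries, and a median parent level of -0.09 and 0.31. Control d14+3 replicates 3 and 5 stood at 0.41 and 0.55 for the members and at 0.50 and 0.03 for the parents. A library high in members was high in parents in some cases and not in others. The mean integrity number was lower in the controls on both days. It was 9.2 in Control d14 and 9.75 in ExpOF d14, and 8.62 in Control d14+3 and 9.43 in ExpOF d14+3. With the integrity number in the fit, the members' median was -0.60 on day 14 and 0.09 on day 17.

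Leaving out single libraries changed calls on day 14 in 1 case. Without Control d14 replicate 1, 12 of 67 members tested (17.9%) passed the threshold as lower in ExpOF d14, where 4220 of 19206 genes (22%) passed it (edgeR, adjusted p under 0.05). The 22% counts genes called in either direction, and the share called lower was not computed. The 12 members therefore have no like share to stand beside. The 12 were Rpl10a-ps1, Rpl19-ps11, Rpl21-ps8, Rpl3-ps1, Rpl31-ps8, Rpl35a-ps2, Rpl38-ps2, Rpl9-ps6, Rps12-ps4, Rps12-ps9, Rps24-ps3 and Rpsa-ps2. With the score for likeness to the left-out library in the fit, the median was -0.46 for the members and -0.01 for the parents on day 14.

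Among the tested members, only Rpl3-ps2 had groups that did not overlap, and this was on day 17. It stood at 2.64 to 3.70 CPM in Control d14+3 with a median of 2.93, and at 1.53 to 2.09 CPM in ExpOF d14+3 with a median of 1.99. All ExpOF d14+3 libraries lay below all controls, as for 0.311% of all genes tested, while 0.116% lay above. The same held for 5 of the 51 parents and 4 of the 29 ribosomal protein genes without a member. The log2 fold change was -0.69 (SE 0.16, edgeR adjusted p 0.227). The exact two-sided permutation test of CPM gave p = 0.00216, unadjusted and the smallest that 6 against 6 libraries allow. That p follows from the lack of overlap and adds nothing to it. DESeq2 gave an adjusted p of 0.0275 and called 0.29% of all genes. The value was -0.70 in July and -0.69 in September, and -0.14 on day 14. Rpl3 itself stood at -0.40 on day 17, and the member-minus-parent difference of log2 CPM was -0.27 (exact permutation p 0.206).

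The other copy of Rpl3 behaved differently in value, although the difference between the copies was not tested. Rpl3-ps1 had a log2 fold change of -0.02 on day 17 (SE 0.18), with 3.39 ± 0.758 CPM in Control d14+3 and 3.34 ± 0.852 CPM in ExpOF d14+3 (SD, n = 6 each). Among members with a mean of at least 20 counts, Rps26-ps1, Rps6-ps3 and Rps10-ps1 had the other low values on day 17, at -0.64, -0.42 and -0.41. Below that limit Rpl35a-ps4 stood at -1.21, with 239 counts in all.

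At the upper end on day 17, among members with a mean of at least 20 counts, stood Rpsa-ps11, one of the diverged copies printed above. Below that limit Rps13-ps4 stood higher, at 0.83, with 209 counts in all. It lies in an intron of Taf1c on the same strand. The 6 tested genes that hold such members in an intron had a median of -0.01 that day (-0.03 to 0.53). Rpsa-ps11 had 0.95 to 1.69 CPM in Control d14+3, median 1.25, and 1.18 to 2.89 CPM in ExpOF d14+3, median 1.73. The groups overlapped at their ends. The log2 fold change of Rpsa-ps11 was 0.59 (SE 0.24, edgeR unadjusted p 0.0206, adjusted p 0.600), with 0.27 in July and 0.91 in September, while Rpsa stood at -0.35. Of the 5 tested copies of Rpsa, the values ran from -0.12 to 0.59 on day 17 and from -1.10 to -0.40 on day 14. With a mean of at least 20 counts, Rps18-ps3, Rps6-ps4 and Rpl18-ps1 followed at 0.40, 0.32 and 0.30, each with an edgeR adjusted p above that of Rpsa-ps11.

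The ratio of each member to its parent within a library removes what moves both alike. The log2 CPM of the member minus that of the parent (prior count 2) was compared between groups in 63 pairs per day by the two-sided exact permutation test, without adjustment. On day 14, 0 of 63 pairs had p under 0.05, and 54 of 63 differences were negative with a median of -0.30. On day 17, 13 pairs had p under 0.05, all with a higher ratio in ExpOF d14+3, and 55 of 63 differences were positive with a median of 0.49. The share of such pairs for other genes set against these parents was not computed. A ratio also rises when only the parent falls, and the median log2 fold change that day was -0.40 for the parents and -0.02 for the members. The 13 pairs are therefore no result about the members alone. Within cohorts the positive differences on day 14, 9 in all mice, numbered 18 in July and 6 in September, and those on day 17 numbered 39 and 57. Without Control d14+3 replicate 5, 29 pairs had p under 0.05 on day 17, and without ExpOF d14+3 replicate 2, 21 had.

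Among the named pairs, Rps13-ps2 had the lowest p on day 17. Its ratio to Rps13 was -4.58 ± 0.273 log2 units in ExpOF d14+3 and -5.15 ± 0.258 in Control d14+3 (SD, n = 6 each), a difference of 0.57 (exact permutation p 0.00216, the smallest that 6 against 6 libraries allow). Rps13-ps2 itself, which has no base of its own, held 1.88 ± 0.430 CPM in Control d14+3 and 1.79 ± 0.305 CPM in ExpOF d14+3, while Rps13 had a log2 fold change of -0.62. Rpsa-ps11 and Rps19-ps3 had differences of 0.90 and 0.53 (exact permutation p 0.00433 for each). Rps16-ps2 had a difference of 0.88 (exact permutation p 0.0325), and leaving out any of 6 single libraries brought its p above 0.05.

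Copies of 1 parent are given side by side, since they share sequence with each other as well as with it. The 8 copies of Rpsa were 92.4% to 99.3% identical to it and stood at 0.0743 to 2.21 CPM per kilobase, against 90.6 for the parent. Of the 7 copies of Rps12, also of the small subunit, 2 passed the filter, and both were far below 0 on day 14 (Rps12-ps4 -1.50, Rps12-ps9 -1.18) and at 0.01 and -0.00 on day 17, all without passing the threshold. Of the 7 copies of Rpl21, the 2 tested stood at -0.83 and -0.64 on day 14 and at -0.44 and 0.24 on day 17. The 2 tested copies of Rpl10 stood close together on both days, at -0.85 and -0.82 and then at -0.11 and 0.03. Of the 4 copies annotated as protein coding, Rpl9-ps6 and Rpl10-ps3 were tested, at -0.45 and -0.85 on day 14. Their parents Rpl9 and Rpl10 stood at -0.32 and -0.23.

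Rpl18-ps1, whose sequence did not align to the Rpl18 transcript and which shares no 51-base stretch with it, lies within an intron of Ctla4, an immune checkpoint gene, on the same strand. It stood at -0.59 on day 14 and 0.30 on day 17. At the low end of identity, Rps2-ps9 (93.1%, 44 mismatches to Rps2) had 174 counts in all and a log2 fold change of -0.75 with an SE of 0.67 on day 14. Rps19-ps3 (95.4% identity) stood at -0.17 on day 14 (SE 0.23), the third smallest difference among the members with a mean of at least 20 counts.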

How the data were processed

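Hypothalamic poly-A RNA libraries were sequenced as 51-base paired-end reads. The authors aligned them to mm10 with STAR and deposited a table of raw counts per gene from featureCounts 1.6.4. The strand setting and the handling of reads with several matches are not given in the sources used here. The table was read for 24 libraries. Control d14 replicate 4 was left out, since the mean counts the study lists match the table only without it.

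Counts were tested with edgeR 4.0.16 in R 4.3.3 (filterByExpr with a minimum of 10 counts, TMM, robust quasi-likelihood fit of the 4 groups, Benjamini-Hochberg adjustment over 18992 genes). The script was tested on simulated data with known fold changes. CPM used TMM library sizes, and ratios to the parent used log2 CPM with a prior count of 2 and two-sided exact permutation tests. DESeq2 1.42.0 was an alternative. All 145 members had a transcript sequence in GENCODE vM21, 139 of them at the position given in the table, and were aligned to the parent with blastn 2.17.0. Depth was 8928182 to 34848437 counts per library. No counting error of single libraries is given, and the tests set the difference between groups against the spread between mice.

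The members and lists were chosen with earlier results of these data known. The named members were the 8 with the highest mean CPM, the 4 largest log2 fold changes in each direction on each day and the 3 largest and 3 smallest member-minus-parent differences on each day (members with a mean of at least 20 counts), and the tested members with the highest and lowest identity to the parent. The cohort-alone counts of pairs were chosen after seeing the data.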

Additional observations from a re-analysis of the deposited data

Results flagged for a closer look

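The Control d14 library that was left out held by far the most member counts. The members summed to 703 CPM in it, and 61 of 63 tested members were above all 5 other Control d14 libraries. The median log2 difference from those controls was 2.63 for the members, 2.004 for the parents, 2.21 for the ribosomal protein genes without a member and -0.39 for the other -ps pseudogenes.

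Of 100 groups of 5 or 6 libraries in which a single library was compared with the rest, 5 held one that stood apart, and chance gives about 1 in 20. Rps10-ps1 was high in Control d14 replicate 2 at 3.22 CPM. In ExpOF d14, replicate 5, the library with the fewest counts, was low for Rpl31-ps8 at 0.45 CPM and for Rps19-ps3 at 0.676 CPM, and replicate 3 stood apart for Rpl36a-ps2 at 2.10 CPM. In ExpOF d14+3, Rps6-ps3 was high in replicate 5 at 1.20 CPM.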

How the results depend on the processing

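With all 24 libraries the median on day 14 was -1.38 for the members and -0.88 for the parents, and with the score for likeness to the left-out library as a covariate the parents' median was -0.0070. The members' median on day 17 was -0.48 in July and 0.46 in September alone. DESeq2 called 1 of 63 members on day 17, Rpl3-ps2, and 0.29% of all genes. Leaving out 1 library at a time, the members called on day 14 ranged from 0 to 12. The 12 came without Control d14 replicate 1. All were lower and made up 17.9% of the members tested there, against 22% of all genes called in either direction. Pairs with an exact p under 0.05 ranged from 0 to 3 on day 14 (3 without Control d14 replicate 6). On day 17 such pairs ranged from 9 to 29 (29 without Control d14+3 replicate 5). The named members were picked in part for large differences in these data. Those with an exact p under 0.05 on day 17 ranged from 1 to 3 (1 without Control d14+3 replicate 1, 2 or 6). The causes were not tested.

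Some single values turned sign. With September alone, Rps26-ps1 stood at 0.24 and Rps6-ps3 at 0.057 on day 17, Rps10-ps1 at 0.15 on day 14, and the member-minus-parent differences of Rps10-ps1 and Rps19-ps3 at -0.10 each on day 14. With July alone, Rps18-ps3 stood at -0.19 and Rpl18-ps1 at -0.0040 on day 17, and the differences of Rps26-ps1 and Rps10-ps1 at -0.56 and 0.31. With the score covariate, Rps10-ps1 and Rps19-ps3 stood at 0.28 and 0.047 on day 14. Leaving out 1 library gave -0.10 to 0.12 for Rps10-ps1 on day 14, and differences of -0.13 to 0.26 for Rps19-ps3 on day 14 and -0.29 to 0.19 for Rps26-ps1 on day 17.

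Same-numbered libraries did not deviate together (33 pairs, r -0.25 to 0.36), and 1 of 23 libraries correlated best with its own number. With the replicate number as a block, no member was called and the members' medians were -0.59 and 0.02. Depth limits the members with few counts: 82 of 145 did not pass the filter and were fitted only where every gene with at least 1 count was kept.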
